A study of Mus musculus with 10 samples.

Results

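Blood vessels are lined by endothelial cells, and the 40 genes described here mark these cells or guide the building of vessels. They were matched by symbol, and 40 of 40 were found among the 18193 mouse genes that had a probe set with a single gene symbol. Where a gene had several such probe sets, the one with the highest mean over 10 arrays was followed.

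RNA was hybridized to 10 Affymetrix arrays of mouse probes, 1 for each condition, from 6-week-old male Swiss nu/nu mice, an athymic strain. PSI grafts were rat (Wistar) pancreatic islets embedded in a plasma-based scaffold, and PSI-F grafts held cultured mouse skin fibroblasts as well. Both were placed under the skin over the abdominal musculature of mice made diabetic with streptozotocin, a toxin of beta cells, and were taken out 1, 3, 7 or 10 days later. Control and Diabetic were subcutaneous biopsies of non-transplanted mice, healthy or given streptozotocin, and stand for day 0. The study retrieved grafts of 2 mice per group and day, used one part of each graft for RNA and hybridized the RNA of best quality, but the sources used here do not tell whether an array holds 1 mouse or a pool. With 1 array per condition there was no replicate within a condition, so both arrays of a day served as its replicates, and p-values measure only the spread between such pairs. Levels are log2 values from RMA (robust multi-array average), on which a step of 1 is a 2-fold difference. The array medians over all probe sets lay between 2.82 and 2.94. Of the 40 genes, 36 were above that median on all 10 arrays. The exceptions were Clec14a (above it on 9 arrays) and Dll4 (on 8), and Gja5 and Prox1, which were above it on none.

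An endothelial cell is held to its neighbours by junction proteins such as VE-cadherin, and takes its identity from transcription factors of the ETS and SOXF families. New capillaries grow from old ones as tip cells led by VEGF and neuropilin signals, while Notch ligands and receptors on neighbouring cells limit the number of tips and set arterial fate. Circulating BMP9 acts through ALK1 and endoglin to calm the new vessel, and the inhibitory Smads damp that signal. In a graft that is placed without its blood supply, vessels have to grow in from the recipient's tissue.

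To place the genes in the genome, the RefSeq promoter windows (build GRCm38.p6, 250 bases before to 50 after a start site) of the 3 genes that rose most on day 7 among those with a window are shown, and that of Smad6, the gene that fell most on day 1. Capitals mark AGGAAG or CGGAAG, the core of an ETS factor site, on either strand in the first 3 genes, and the SMAD palindrome GTCTAGAC in Smad6.
Nrp1, chr8:128358823-128359122, plus strand: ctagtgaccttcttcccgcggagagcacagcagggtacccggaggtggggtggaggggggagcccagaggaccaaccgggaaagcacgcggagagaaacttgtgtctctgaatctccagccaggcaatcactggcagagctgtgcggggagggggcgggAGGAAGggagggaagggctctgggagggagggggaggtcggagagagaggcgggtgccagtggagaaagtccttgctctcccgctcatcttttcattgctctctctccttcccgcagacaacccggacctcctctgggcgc
Tie1, chr4:118489800-118490099, minus strand: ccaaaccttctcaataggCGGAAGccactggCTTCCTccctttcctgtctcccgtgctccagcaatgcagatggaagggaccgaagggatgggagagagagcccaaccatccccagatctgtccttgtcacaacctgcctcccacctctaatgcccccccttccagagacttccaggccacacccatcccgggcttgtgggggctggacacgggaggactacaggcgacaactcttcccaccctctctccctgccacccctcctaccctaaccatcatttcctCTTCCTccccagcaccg
Clec14a, chr12:58269209-58269508, minus strand: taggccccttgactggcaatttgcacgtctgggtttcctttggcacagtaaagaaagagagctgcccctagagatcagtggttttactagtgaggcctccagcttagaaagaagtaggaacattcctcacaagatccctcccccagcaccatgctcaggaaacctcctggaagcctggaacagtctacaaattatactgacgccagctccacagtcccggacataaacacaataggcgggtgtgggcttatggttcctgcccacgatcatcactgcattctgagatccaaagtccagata
Smad6, chr9:64022010-64022309, minus strand: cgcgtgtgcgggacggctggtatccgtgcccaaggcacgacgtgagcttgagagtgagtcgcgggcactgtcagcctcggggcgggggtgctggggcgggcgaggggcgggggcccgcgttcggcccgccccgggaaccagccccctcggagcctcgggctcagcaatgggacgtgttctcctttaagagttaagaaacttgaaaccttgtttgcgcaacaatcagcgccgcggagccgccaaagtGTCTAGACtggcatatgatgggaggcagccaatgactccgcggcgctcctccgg
Nrp1 held 1 ETS match, Tie1 held 3 and Clec14a held none. Windows were given for 24 of the 40 genes, 29 windows in all, of which 13 held an ETS match (44.8%, against 46.5% of all 32851 windows). Among the 10 windows of genes that rose on day 7, 7 held one. The palindrome occurred in 1 of the 29 windows, that of Smad6, and in 0.213% of all windows. These matches are a description of the letters and were not tied to binding of any factor.

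On the deposited scale, the expression of these genes climbed from the biopsies to day 7 and was lower again on day 10. The median of the 40 levels was 4.37 in Control and 4.48 in Diabetic, 4.77 and 4.93 in PSI and PSI-F on day 1, 4.99 and 5.27 on day 3, 5.52 and 5.43 on day 7, and 4.84 and 4.80 on day 10. Both day 7 arrays stood above all other arrays in this measure, and both biopsies below all grafts. The median over all genes moved between 4.23 and 4.56 on the same arrays, with no peak on day 7.

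**Figure D1:**
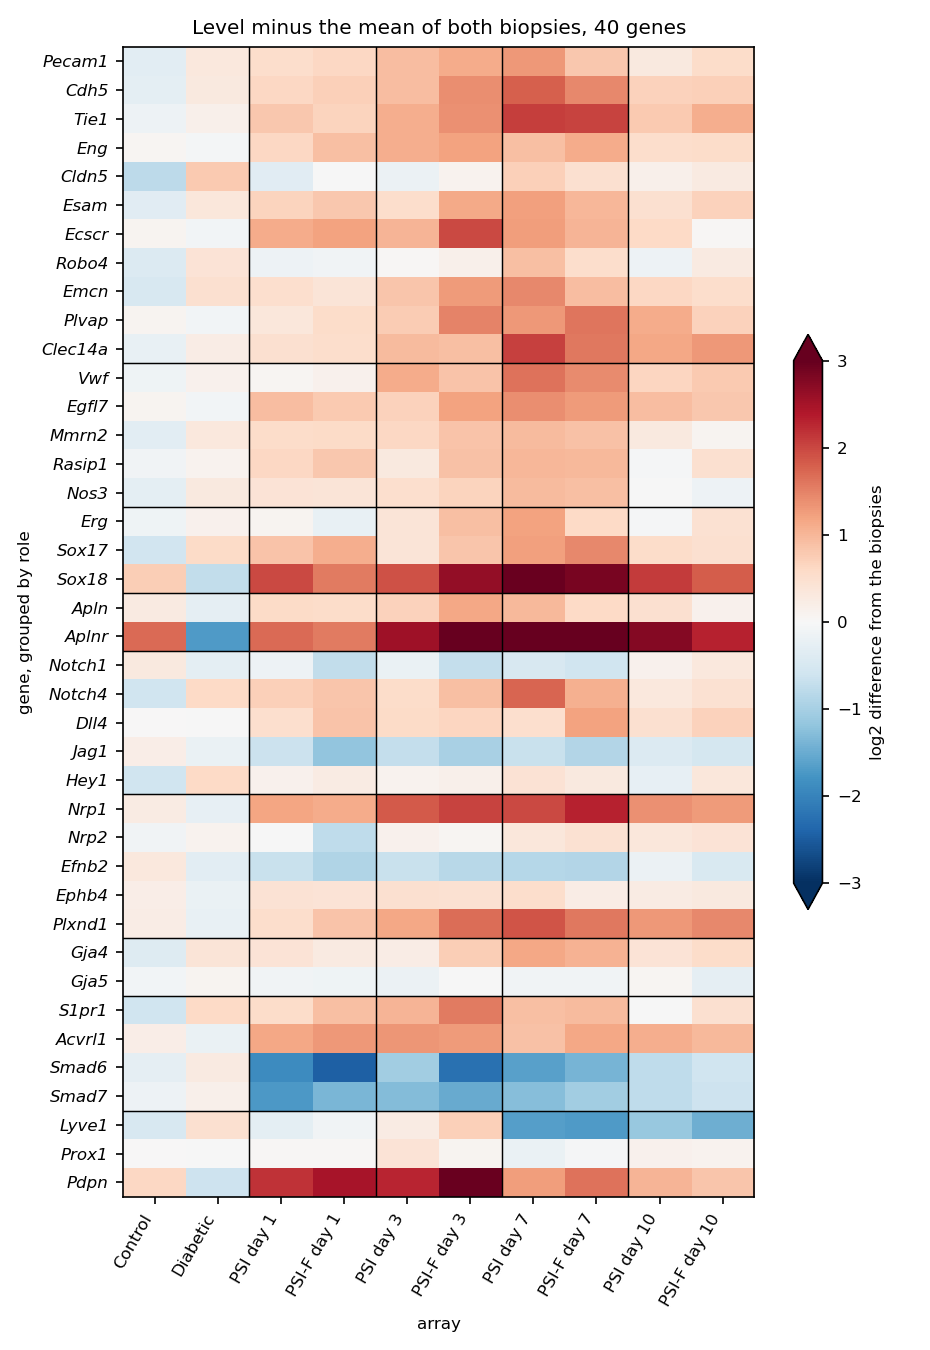
Level of each of the 40 genes minus the mean of both biopsies (log2, colour scale from -3 to 3), with genes in rows grouped by role and the 10 arrays in columns. Most rows are reddest in the 2 columns of day 7, whereas Jag1, Efnb2, Smad6 and Smad7 are blue in all graft columns.

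The mean of 25 of the 40 genes was highest on day 7, against 25.3% of all genes. Another 9 were highest on day 3, 5 on day 0, 1 on day 10 and none on day 1, where 17.9% of all genes had their highest mean. The lowest mean was that of the biopsies in 27 of the 40, against 25.4% of all genes.

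In the fit across all genes (limma, day as a factor, 2 arrays a day, adjusted p under 0.05), 5 of the 40 genes were higher than in the biopsies and 2 lower on day 1. The background was 3.87% of all genes higher and 1.69% lower. On day 3, 12 were higher and 1 lower (4.44% and 0.929% of all genes), and on day 7, 18 were higher and 3 lower (5.23% and 3.89%). On day 10, 4 were higher and none was lower (1.05% and 0.033%). At an unadjusted p under 0.05 there were 16 of the 40 on that day, against 11.6% of all genes. The median difference of the 40 from the biopsies was 0.53, 0.74, 1.00 and 0.38 on days 1, 3, 7 and 10, and that of all genes lay between -0.03 and 0.01. Every direction given here is that of the deposited scale. Subtracting the median of Pecam1, Cdh5, Tie1, Esam and Erg on each array, which was the level of Tie1 itself on 8 of the 10, lowered the difference of all genes alike (median -1.91 on day 7) and so turned the sign of many members.

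These counts rest on few arrays. On day 7, 7 of the 21 calls held whichever array was left out (Cdh5, Tie1, Vwf, Egfl7, Clec14a, Nrp1 and Plxnd1), and the number of genes called higher moved between 7 (without PSI-F of day 7) and 25 (without Diabetic). On day 3, 1 gene was called higher without PSI-F of day 3 (Nrp1) and 18 without Diabetic, and the count of day 1 was 0 without either array of that day. On day 10 it was 0 without either array of day 1 or of day 10. In a whole graft, fewer endothelial cells and less RNA per cell cannot be told apart.

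Among the genes for surface and junction proteins of endothelial cells, 7 of 11 rose on day 7, with a median of 1.14. Tie1, an endothelial receptor that works beside the angiopoietin receptor, was at 3.67 in Control and 3.98 in Diabetic. In PSI and PSI-F it was at 4.63 and 4.49 on day 1, at 4.90 and 5.19 on day 3, at 5.89 and 5.85 on day 7, and at 4.61 and 4.92 on day 10. All 8 grafts were above both biopsies, and the day 7 pair was above every other array. Tie1 on day 7 was 4.13-fold above the biopsies (2.05 ± 0.18, SE, adjusted p = 0.00105).

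Cdh5, which encodes VE-cadherin, followed the same course. Its level was 3.38 and 3.98 in Control and Diabetic, then 4.30 and 4.39 on day 1, 4.61 and 5.07 on day 3, 5.48 and 5.12 on day 7, and 4.36 and 4.40 on day 10, PSI first in each pair. Day 7 was 1.61 ± 0.24 above the biopsies (adjusted p = 0.00685), and the grafts did not overlap with the biopsies on any day. A second, dimmer probe set of Cdh5 moved by 0.21. Pecam1, an adhesion molecule used to stain vessels in tissue sections, was at 4.47 and 5.12 in the biopsies, between 5.34 and 5.90 on days 1 and 3, at 6.10 and 5.61 on day 7 and at 5.10 and 5.35 on day 10. The Diabetic biopsy lay within the day 10 range, and the day 7 difference was 1.06 ± 0.25 (adjusted p = 0.0399).

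Clec14a, a lectin of vessel walls, was the only member that was higher on days 7 and 10 than on days 1 and 3 in the test of late against early grafts, where 0.456% of all genes were higher and 0.962% lower. It stood at 2.63 and 3.07 in Control and Diabetic, near the array median, at 3.34 and 3.37 on day 1, at 3.81 and 3.75 on day 3, at 4.90 and 4.43 on day 7 and at 4.01 and 4.14 on day 10. All 4 late grafts were above all 4 early grafts. Late minus early was 0.80 ± 0.14 (adjusted p = 0.0413), and this call was lost without any single graft array. Its day 7 difference from the biopsies, 1.81 ± 0.20 (adjusted p = 0.00238), held with each array left out.

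**Figure D2:**
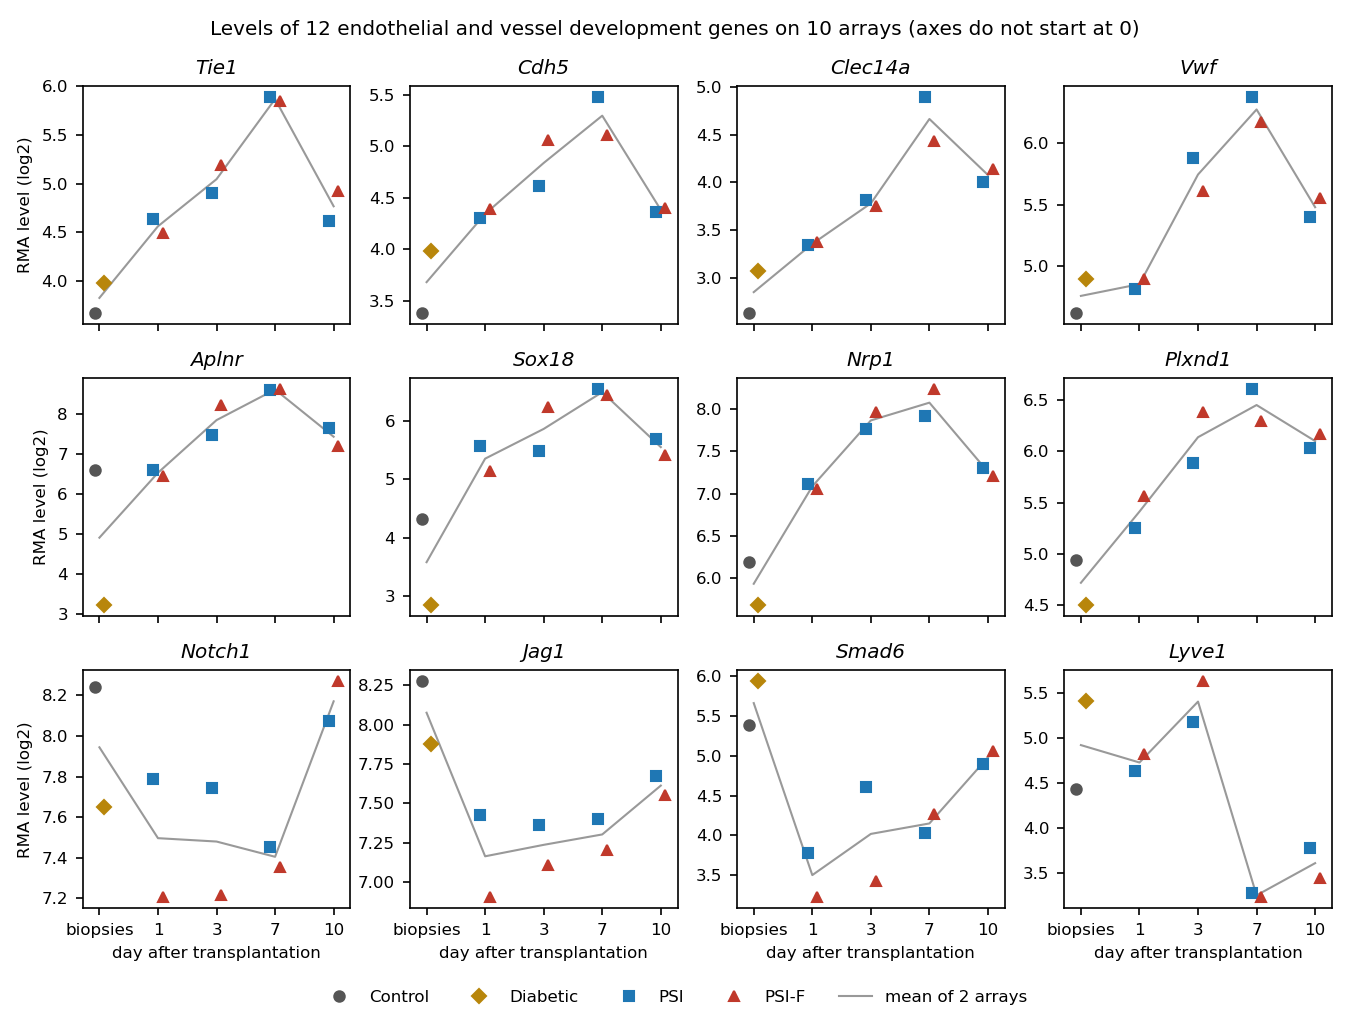
RMA level (log2) of 12 of the genes on each array, by day (equally spaced categories), with the shape of a point giving the group and the grey line joining the mean of the 2 arrays of a day. Tie1, Cdh5, Clec14a, Vwf, Aplnr, Sox18, Nrp1 and Plxnd1 have their highest mean on day 7, Notch1, Jag1 and Smad6 have lower means on days 1 to 7 than on days 0 and 10, and Lyve1 drops between days 3 and 7.

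Other genes for surface proteins differed in the days on which they passed the threshold. Eng (endoglin, a coreceptor for BMP9) was at 6.12 in Control and 6.0 in Diabetic, already at 6.69 and 6.96 on day 1, then at 7.14 and 7.25, 6.96 and 7.18, and 6.59 and 6.60 on days 3, 7 and 10. Its difference passed the test on days 1 (0.77 ± 0.15), 3 (1.14 ± 0.15) and 7 (1.01 ± 0.15). Its second probe set moved by 0.48 on day 1 and 0.29 on day 7. Plvap, which forms the diaphragms of fenestrated capillaries, ran from 5.41 to 5.60 in the biopsies and from 6.81 to 7.11 on day 7 (1.46 ± 0.26, adjusted p = 0.0135). Ecscr passed only on day 3 (1.51 ± 0.30, adjusted p = 0.0312), where PSI-F at 6.30 was well above PSI at 5.35, and the call was lost without that PSI-F array, Diabetic, or any of the 4 arrays of days 1 and 7. On days 1 and 7 Ecscr missed the threshold, with 1.15 ± 0.30 and 1.14 ± 0.30 (adjusted p = 0.0788 and 0.0614). Esam rose on day 7 (1.10 ± 0.26). Emcn at 1.18 ± 0.31, Robo4 at 0.71 ± 0.27 and Cldn5 at 0.60 ± 0.42 did not pass. Cldn5, the tight junction protein, differed more between the biopsies (4.24 and 5.82) than between any of the grafts, which lay from 4.69 to 5.75.

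All 5 genes for secreted and intracellular proteins of the endothelium were higher on day 7. Vwf, the clotting factor stored in endothelial granules, was first called on day 3. It was at 4.62 and 4.90 in the biopsies and at 4.82 and 4.90 on day 1, and rose to 5.88 and 5.62 on day 3 and 6.38 and 6.17 on day 7 before 5.41 and 5.56 on day 10. Day 1 overlapped with the biopsies, whereas days 3, 7 and 10 did not. The difference was 0.99 ± 0.17 on day 3 and 1.52 ± 0.17 on day 7 (adjusted p = 0.0149 and 0.00233). Egfl7, a matrix protein secreted by sprouting endothelium, was already called on day 1, with 0.86 ± 0.19 on day 1, 0.95 ± 0.19 on day 3 and 1.33 ± 0.19 on day 7. Mmrn2, Rasip1 and Nos3, which encodes the endothelial nitric oxide synthase, rose on day 7 by 0.91, 0.99 and 0.92 (adjusted p between 0.0306 and 0.0436).

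Of the 3 transcription factors, Sox18 was called. It was at 4.32 in Control but 2.85 in Diabetic, at 5.57 and 5.13 on day 1, 5.48 and 6.23 on day 3, 6.54 and 6.43 on day 7, and 5.69 and 5.41 on day 10. Every graft was above Control, the higher biopsy. The difference was 2.28 ± 0.44 on day 3 and 2.90 ± 0.44 on day 7 (adjusted p = 0.0262 and 0.00749). Sox17, its close relative, was 1.33 ± 0.34 above the biopsies on day 7 (adjusted p = 0.0526) and Erg, the ETS factor, 0.91 ± 0.28 (adjusted p = 0.0937), so neither passed.

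The apelin receptor gene Aplnr, found on sprouting and venous endothelium, had the largest difference of the 40. Its biopsies disagreed, with 6.59 in Control and 3.22 in Diabetic. The grafts were at 6.60 and 6.46 on day 1, 7.46 and 8.23 on day 3, 8.59 and 8.62 on day 7, and 7.65 and 7.21 on day 10. Day 1 did not leave the level of Control, and days 3, 7 and 10 were above it. Day 7 was 3.70 ± 0.86 above the mean of the biopsies (adjusted p = 0.0393), 2.01 above Control alone and 5.39 above Diabetic alone. The second probe set of Aplnr moved less, by 1.66 on day 7, and was at 3.73 in Control and 2.92 in Diabetic. Its ligand gene Apln, known from tip cells, was between 3.88 and 4.41 in the biopsies and between 4.26 and 5.31 in the grafts, and passed on no day (0.78 ± 0.24 on day 7, adjusted p = 0.102).

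The Notch pathway did not move as 1 group, and none of its 5 members passed the test on any day. Notch1 was at 8.24 and 7.65 in the biopsies, 7.79 and 7.20 on day 1, 7.74 and 7.22 on day 3, 7.45 and 7.36 on day 7, and 8.07 and 8.27 on day 10. Both day 10 arrays were above all 6 earlier grafts. Notch4, the endothelial receptor of the family, was between 2.96 and 4.13 in the biopsies and highest on day 7, at 5.29 and 4.62 (1.41 ± 0.36, adjusted p = 0.0562). The ligand gene Jag1 was at 8.28 and 7.88 in the biopsies and between 6.90 and 7.67 in the grafts, so that every graft was below both biopsies, with the largest gap on day 1 (-0.91 ± 0.22, adjusted p = 0.0583). Dll4, the tip cell ligand, was at 2.59 and 2.56 in the biopsies and at 3.06 to 3.78 in the grafts (0.85 ± 0.23 on day 7, adjusted p = 0.0669), and the Notch target Hey1 lay at 3.16 and 4.33 in the biopsies around all its graft values. Jag1 and Notch1 are also expressed by keratinocytes and other skin cells.

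Among the guidance receptors, Nrp1 and Plxnd1 rose and the ephrin pair did not. Nrp1 encodes neuropilin 1, a coreceptor for VEGF and semaphorins. It was at 6.19 and 5.68 in the biopsies, 7.12 and 7.05 on day 1, 7.77 and 7.96 on day 3, 7.91 and 8.24 on day 7, and 7.31 and 7.21 on day 10. Every graft was above both biopsies, by 1.15 ± 0.20, 1.93 ± 0.20, 2.14 ± 0.20 and 1.32 ± 0.20 on the 4 days in turn, and it was called on each (adjusted p = 0.0171, 0.00148, 0.00122 and 0.0266). The other 3 probe sets of Nrp1 moved by 1.78 to 2.22 on day 7.

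Plxnd1, the plexin that receives semaphorin signals in vessels, was at 4.94 and 4.50 in the biopsies, 5.26 and 5.57 on day 1, 5.89 and 6.38 on day 3, 6.60 and 6.29 on day 7 and 6.03 and 6.17 on day 10. Its day 10 arrays had come down little from day 7. It was called on days 3, 7 and 10, by 1.42, 1.73 and 1.38 (each ± 0.23). Nrp2, a receptor of lymphatic and venous endothelium, passed on no day, and its probe sets disagreed in sign on day 1. Efnb2, the arterial ephrin, was at 7.90 and 7.27 in the biopsies and from 6.68 to 7.40 in the grafts (-0.86 ± 0.22 on day 7, adjusted p = 0.0541), and its venous receptor gene Ephb4 stayed between 4.34 and 5.07 on all arrays. Of the arterial connexins, Gja4 rose on day 7 (1.11 ± 0.26, adjusted p = 0.0423), and Gja5 lay near background everywhere, between 1.24 and 1.59.

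The genes for ALK1 and for the inhibitory Smads went in opposite directions. Acvrl1, which encodes ALK1, was at 3.44 and 3.03 in the biopsies, 4.40 and 4.53 on day 1, 4.55 and 4.51 on day 3, 4.10 and 4.40 on day 7, and 4.32 and 4.21 on day 10. On the probe set followed it was up by the first day and stayed level after that. The differences were 1.23, 1.30, 1.02 and 1.03 (each ± 0.18), all past the threshold. A second, dimmer probe set of Acvrl1 did not stay level, and moved by 0.56 on day 1 and 1.00 on day 7. On day 10 it was at 3.58 and 3.40, against 3.01 and 3.22 in the biopsies. Smad6 was at 5.39 and 5.94 in the biopsies, 3.78 and 3.22 on day 1, 4.61 and 3.43 on day 3, 4.03 and 4.27 on day 7, and 4.90 and 5.07 on day 10. Every graft was below both biopsies, with a climb to day 10. Smad6 fell by 2.16 ± 0.37 on day 1 (adjusted p = 0.0169) and by 1.51 ± 0.37 on day 7 (adjusted p = 0.0485), and missed the threshold on day 3 (adjusted p = 0.0517).

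Smad7 ran in parallel. It was at 6.59 and 6.90 in the biopsies, 5.03 and 5.37 on day 1, 5.44 and 5.22 on day 3, 5.47 and 5.71 on day 7, and 5.99 and 6.11 on day 10. It fell by 1.54, 1.41 and 1.15 on days 1, 3 and 7 (each ± 0.19, adjusted p = 0.00363, 0.00477 and 0.00979), and on day 10 the difference of -0.70 did not pass. Keratinocytes and fibroblasts also express both Smads. The median of 9 keratinocyte and hair follicle genes was 11.23 and 9.66 in the biopsies, 8.75 to 10.28 on days 1 to 7 and 10.86 and 10.79 on day 10. Its part in the course of Smad6, Smad7, Jag1 and Efnb2 was not tested. S1pr1, the sphingosine 1-phosphate receptor of the vessel wall, passed on no day, with 3.03 and 4.23 in the biopsies and a highest value of 5.20 in PSI-F on day 3.

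The lymphatic markers parted from one another. Lyve1, a hyaluronan receptor of lymphatic vessels and of some macrophages, was at 4.44 and 5.41 in the biopsies, 4.64 and 4.82 on day 1, 5.18 and 5.63 on day 3, 3.28 and 3.23 on day 7, and 3.77 and 3.45 on day 10. All 4 late grafts were below both biopsies and all early grafts. Lyve1 fell by 1.67 ± 0.30 on day 7 (adjusted p = 0.0152), and late minus early was -1.64 ± 0.21 (adjusted p = 0.0159). Its second probe set moved less on day 7 (-0.44). Pdpn (podoplanin), which fibroblasts and keratinocytes express as well, was at 6.23 and 4.98 in the biopsies, 7.76 and 8.08 on day 1, 7.88 and 8.58 on day 3, 6.87 and 7.23 on day 7 and 6.62 and 6.43 on day 10. It rose by 2.32 ± 0.39 on day 1 and 2.63 ± 0.39 on day 3 (adjusted p = 0.0152 and 0.00811), and its difference of 1.44 on day 7 missed the threshold (adjusted p = 0.0642). Prox1, the factor that defines lymphatic endothelium, lay near background on all arrays, between 1.20 and 1.81.

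**Figure D3:**
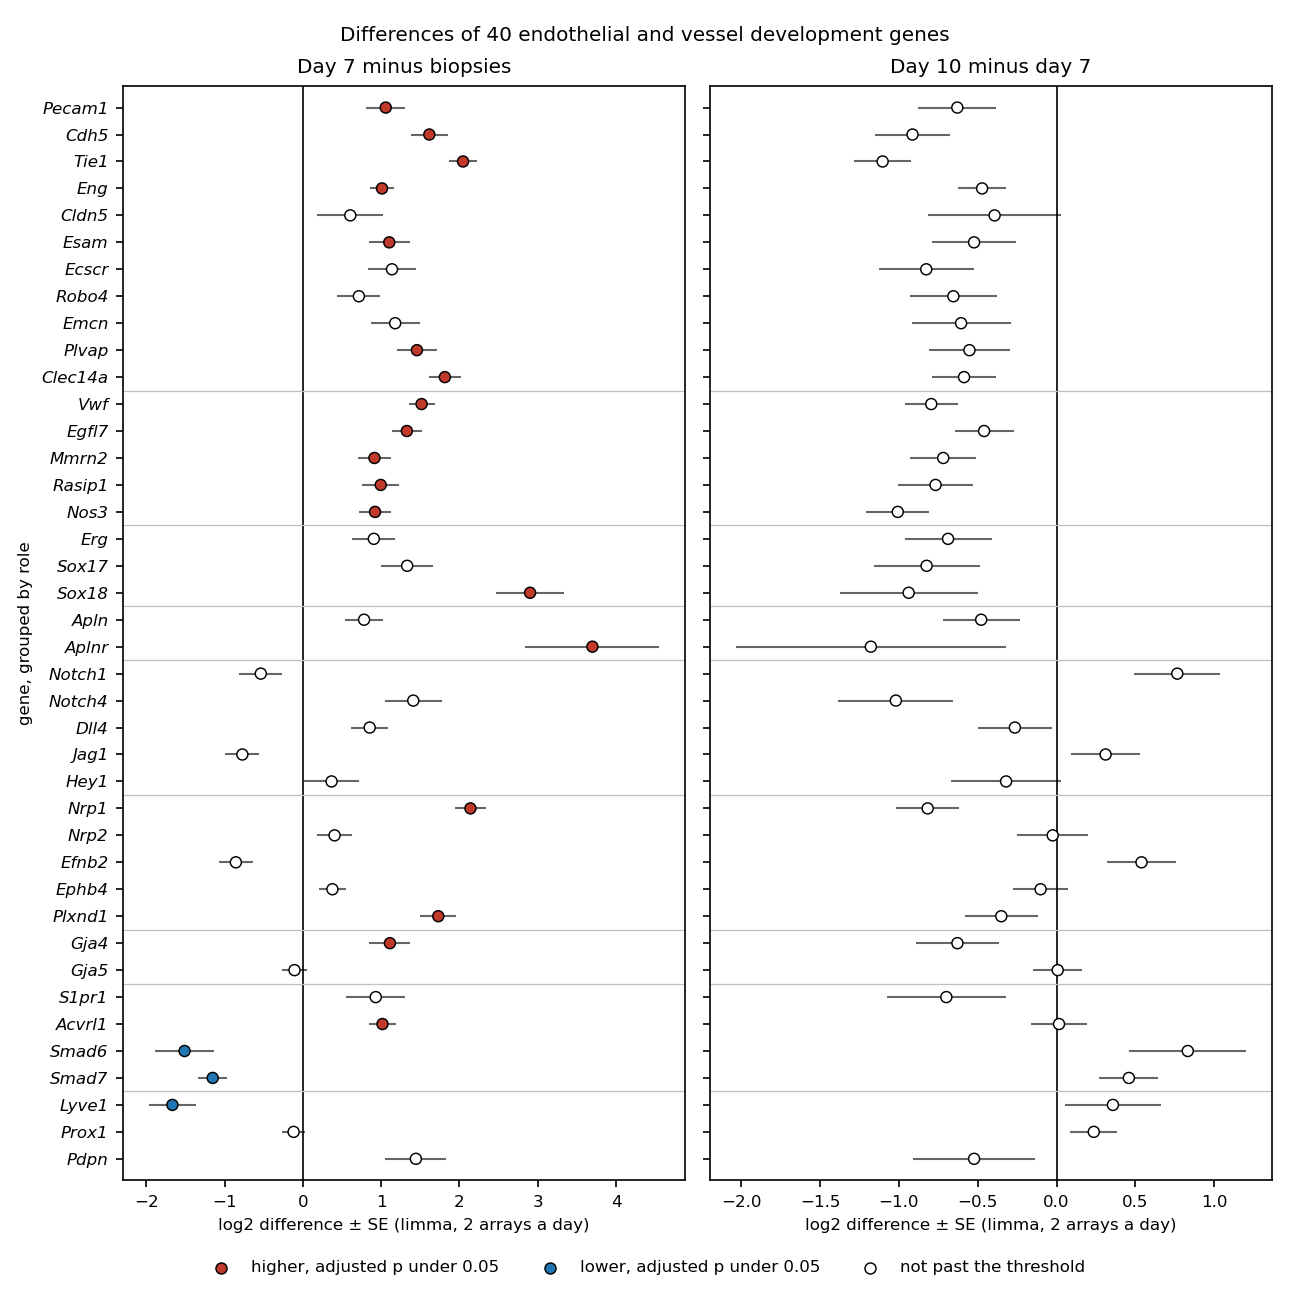
Fitted log2 difference ± SE of each of the 40 genes between day 7 and the biopsies (left) and between day 10 and day 7 (right), from limma with 2 arrays a day, with filled points for those past an adjusted p of 0.05. On the left 18 points are filled above 0 and 3 below it, and on the right none is filled although all but 9 lie below 0.

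The step from day 7 to day 10 was compared after the levels had been seen. The difference was negative in all but 9 of the 40 genes, with a median of -0.54 against -0.02 over all genes. In 27 of the 40 both day 7 arrays were above both day 10 arrays, a pattern shown by 27% of all genes. No member passed the adjusted threshold, where 0.0275% of all genes were higher and 0.0055% lower. At an unadjusted p under 0.05 there were 20 of 40, against 12.2% of all genes, and the smallest adjusted p was that of Tie1 (-1.10 ± 0.18, adjusted p = 0.121). Nos3 (-1.01 ± 0.20), Vwf (-0.79 ± 0.17), Nrp1 (-0.82 ± 0.20) and Cdh5 (-0.91 ± 0.24) followed. Clec14a, Nrp1, Plxnd1 and Acvrl1 were still called above the biopsies on day 10.

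Without regard to the test, both day 7 arrays were above both biopsies in 30 of the 40 genes, against 24% of all genes. All 8 grafts were above both biopsies in 14 (8.15% of all genes), namely Cdh5, Tie1, Eng, Esam, Sox18, Plvap, Egfl7, Clec14a, Dll4, Nrp1, Ephb4, Plxnd1, Acvrl1 and Pdpn. All 8 were below both in 3, Jag1, Smad6 and Smad7 (7.37% of all genes).

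The biopsies themselves differed, which widened the spread that the tests had to pass. From Control to Diabetic, 5 genes were 2-fold or more higher, Cldn5, Sox17, Notch4, Hey1 and S1pr1 (4.12% of all genes), and 3 were 2-fold or more lower, Aplnr, Sox18 and Pdpn (6.89% of all genes). The largest gap was that of Aplnr, -3.38. With 1 array each, these differences had no replicate check.

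PSI-F and PSI grafts were compared to see whether fibroblasts went with higher levels of these genes. With the day as a block, no member passed an adjusted p of 0.05 in limma, and 0% of all genes did. The smallest adjusted p was 0.751, the differences ran from -0.33 (Smad6) to 0.36 (S1pr1), and their median SE was 0.13. At an unadjusted p under 0.05 there were 4 members, S1pr1 (0.36 ± 0.12), Dll4 (0.33 ± 0.13), Rasip1 (0.32 ± 0.13) and Jag1 (-0.27 ± 0.11), against 6.28% of all genes. On the probe sets followed, S1pr1 and Dll4 were higher in PSI-F on 4 of 4 days and Jag1 was lower on 4 of 4. The second, dimmer probe set of Dll4 was lower in PSI-F on days 7 (2.63 in PSI, 2.60 in PSI-F) and 10 (2.65 and 2.47). Dimmer probe sets of Jag1 were higher in PSI-F on day 3 (2.29 in PSI, 2.43 in PSI-F) or day 10 (3.24 and 3.44). Whether the difference changed between early and late days was tested with an interaction term, which has few degrees of freedom here. No member and 0% of all genes passed, with 4 members and 3.95% of all genes at an unadjusted p under 0.05.

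On single days the pairs could only be described. On day 3, 29 of 40 genes were higher in PSI-F, where 49.4% of all genes were, and the median difference was 0.25 against 0.00 over all genes. Ecscr was 0.96 higher, Aplnr 0.77, Sox18 0.74, Plvap 0.72, Pdpn 0.70, Esam 0.60 and Rasip1 0.60. On days 1 and 10, 22 of 40 were higher in PSI-F (medians 0.04 and 0.04), and on day 7, 13 of 40 (median -0.08), where Notch4 was 0.67 lower and Erg 0.60 lower in PSI-F but Dll4 0.70 higher. Of these genes, Dll4 alone kept its sign on all 4 days, on the probe set followed but not on its second one. Medians of other cell lists also differed between the PSI and PSI-F arrays of day 3. Keratinocyte and hair follicle genes were at 10.28 and 8.75, skeletal muscle genes at 11.89 and 11.21, and neutrophil genes at 5.68 and 7.13. Fibroblast genes were close, at 9.37 and 9.34. The part of such differences in the day 3 values was not tested.

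**Figure D4:**
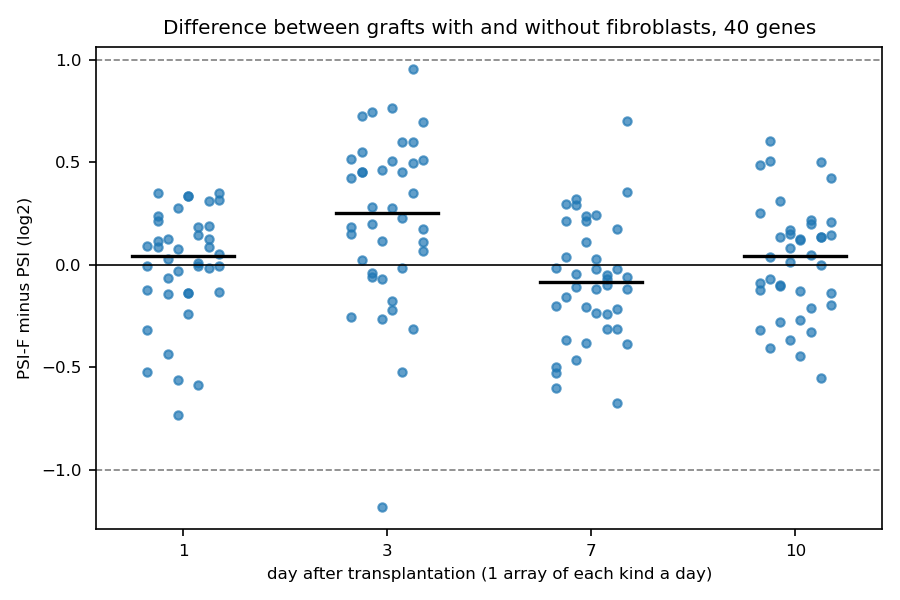
Difference between the PSI-F and PSI array of the same day (log2) for each of the 40 genes, with the median as a black bar and dashed lines at a 2-fold difference. The bar is at 0.25 on day 3 and between -0.08 and 0.04 on the other days, and 1 point, Smad6 on day 3, lies beyond a dashed line.

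With the probe set followed for each gene, a 2-fold difference within a day was reached once. Smad6 on day 3 was at 3.43 in PSI-F and at 4.61 in PSI, a difference of -1.18. On that day 0.989% of all genes were 2-fold higher and 1.87% 2-fold lower. The shares were 0.313% and 0.819% on day 1, 0.956% and 0.824% on day 7, and 0.385% and 0.346% on day 10, with no member among them. Some dimmer probe sets that were not followed did reach it. That of Jag1 was at 4.12 in PSI and 1.95 in PSI-F on day 1, and at 3.96 and 2.18 on day 7. On days 3 and 10 its pairs were close (2.29 and 2.43, 3.35 and 3.17). A dimmer probe set of Nrp2 was at 5.02 in PSI and 3.32 in PSI-F on day 1.

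Other genes of the same pathways were read out from lists of ligands, receptors, regulators and further markers. Of 81 such genes, 8 were higher and 7 lower on day 1 (3.87% and 1.69% of all genes). The counts were 14 and 2 on day 3 (4.44% and 0.929%), 12 and 6 on day 7 (5.23% and 3.89%), and 3 and 0 on day 10 (1.05% and 0.033%). Of 17 other endothelial markers, 5 rose on day 7 and none fell. The largest were Vcam1 (3.43 ± 0.32), an adhesion molecule for leukocytes, Stab1 (2.30 ± 0.36), a scavenger receptor shared with macrophages, Icam2 (1.39 ± 0.23) and Ramp2 (1.12 ± 0.19), the partner of the adrenomedullin receptor. Among 11 VEGF and angiopoietin genes only Kdr, the main VEGF receptor, passed on day 7 (1.14 ± 0.19), and only Vegfc on day 3 (1.11 ± 0.22).

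Of 16 endothelial transcription regulators, 5 rose on day 7, led by Elk3 (2.41 ± 0.55), Fli1 (2.25 ± 0.28) and Ets1 (1.84 ± 0.38), which are ETS factors of blood cells as well, and 2 fell, Foxc1 (-2.02 ± 0.27) and Klf4 (-1.20 ± 0.17). Klf2, the factor induced by blood flow, was higher on days 1 (1.78 ± 0.24) and 3 (1.52 ± 0.24). Of 11 Notch partners 1 fell on day 7, Jag2 (-0.98 ± 0.20), and of 14 guidance partners 2 fell, Epha2 (-1.01 ± 0.25) and Efna1 (-0.87 ± 0.14). Among 12 BMP and TGF-beta partners Tgfbr2 rose (1.42 ± 0.17) and Bmp2 fell (-1.63 ± 0.31). Those 3 lists had medians near or below 0 on day 7 (0.00, -0.37 and -0.46).

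Markers of other cells moved over the same days. The median of 11 macrophage genes was 4.69 and 5.30 in the biopsies and 6.97 to 8.23 in the grafts, and 10 of 11 rose on day 7 (Lyz2 by 3.73 ± 0.33). The median of 10 fibroblast genes was 7.95 and 8.05 in the biopsies and 8.08 to 10.12 in the grafts, highest in PSI on day 7, and 7 of 10 rose on that day (Col1a1 by 2.56 ± 0.25). Of 11 pericyte and smooth muscle genes, whose cells wrap the capillary, 3 rose on day 7 (Acta2 by 1.48 ± 0.32, Tagln by 1.31 ± 0.24 and Pdgfrb by 1.70 ± 0.30), with medians of 6.86 and 6.53 in the biopsies and 6.81 to 7.999 in the grafts. The 7 neutrophil genes had medians of 3.37 and 4.38 in the biopsies and 4.73 to 7.20 in the grafts, highest in PSI on day 1 and lowest in PSI-F on day 10. Skeletal muscle genes, 8 in number, were high everywhere, with medians from 11.21 to 12.21, and none passed on any day. The keratinocyte genes were high too, whereas 5 adipocyte genes had medians of 4.57 and 4.40 in the biopsies and 4.16 to 5.70 in the grafts, and Lep alone of them rose on day 7. No gene of 9 for the cell cycle passed, and of 6 platelet genes Pf4, which macrophages can express, rose on days 1, 3 and 7. The part of these cells was not tested for any of the endothelial genes, those of the pathway lists such as Vcam1 included. Nrp1, Plxnd1, Lyve1 and Pdpn are examples of genes that macrophages or fibroblasts can express too, and are not a complete list.

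Between the day groups the arrays also differed outside the mouse genes. Of 24 probe sets for the poly-A control RNAs added during labelling, 12 were brighter on all 4 arrays of days 7 and 10 than on all other arrays. Their part in the late differences was not tested.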

How the data were processed

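RNA of 8 grafts and 2 biopsies was hybridized to Affymetrix arrays of mouse probes. The authors deposited log2 levels. The submitters' processing notes list RMA, R 2.15.0 and affy 1.36.0. RMA corrects the background, brings the probes of all arrays to 1 distribution and sums them up into 1 value per probe set. A level is therefore relative to the other genes of that array. The number of arrays, 1 for each condition, limits the precision. Transcripts of the rat islets count only where they bind to mouse probes.

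Of 45101 probe sets 64 are controls and were left out, and 45037 were tested. Per gene, the probe set with a single symbol and the highest mean level was used (19 of the 40 genes have several). The fits used limma 3.58.1 under R 4.3.3: a factor of 5 days with 2 arrays each, and over the 8 grafts the effect of fibroblasts with day as block, with Benjamini-Hochberg adjustment over all probe sets and a threshold of 0.05. No replicate within a condition exists. Day pairs differ by streptozotocin (day 0) or fibroblasts, and that difference stays in their spread. Shares over all genes refer to 18193 genes.

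The 40 genes and the lists beside them were chosen with earlier results of these data known. All 40 are named. Of the pathway lists the called genes are named, up to 4 a list by size, and of the cell lists up to 3 by level, apart from Pdgfrb, Acta2 and Tagln, which were called. Klf2 was named beyond the 4 of its list, and Klf4 was named after its value was seen. Alternatives were another normalization, the mean of probe sets, a filter on dim probe sets, an intensity trend, 3 groups of days, scaling to 5 endothelial markers and leaving out each array. The step from day 7 to day 10 was added after the levels were seen. Summaries were made in Python 3.11.15 with numpy 2.4.6 and pandas 2.3.3, and plots with matplotlib 3.10.9.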

Additional observations from a re-analysis of the deposited data

How the results depend on the processing

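With cyclic loess, the mean of all probe sets, the filter on dim probe sets or the intensity trend, none of the calls against the biopsies changed direction, and the number of members called higher stayed within 1.5 times. Counts that moved were those of members lower on day 3 (2, 2 and 2 with the mean of probe sets, the filter and the trend, against 1) and of members higher in late grafts (2 with cyclic loess and 0 with the trend, against 1). With 3 groups of days (biopsies, early, late), 6 members were higher and 3 lower in the early grafts, and 6 higher and 2 lower in the late grafts, than in the biopsies. With the 8 grafts alone and the kind as a covariate, 0 were higher and 2 lower in late grafts. At 4-fold in place of 2-fold, 0 members differed between PSI-F and PSI on day 3. PSI-F minus PSI gave 0 calls in every alternative, without the day block too.

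Scaling to the median of 5 endothelial markers, equal to the level of Tie1 on 8 of 10 arrays, subtracts 1 number from all genes of an array, so the turned signs follow from its construction and say nothing on stability. The members called higher and lower were 2 and 11 on day 1, 4 and 16 on day 3, 2 and 27 on day 7, 2 and 15 on day 10, 13 higher from day 7 to day 10, and 0 and 10 in late against early grafts. On day 3 the sign turned for Cdh5 (-0.0634), Eng (-0.082), Vwf (-0.23), Egfl7 (-0.27) and Clec14a (-0.29). On day 7 it turned for Pecam1 (-0.87), Cdh5 (-0.31), Eng (-0.91), Vwf (-0.41), Esam (-0.82), Plvap (-0.47), Egfl7 (-0.60), Mmrn2 (-1.01), Rasip1 (-0.93), Nos3 (-1.004), Clec14a (-0.11), Plxnd1 (-0.20), Gja4 (-0.81) and Acvrl1 (-0.91).

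Leaving out 1 array at a time, the members called higher ranged from 0 to 11 on day 1, 1 to 18 on day 3, 7 to 25 on day 7 and 0 to 9 on day 10, and those lower from 1 to 4, 0 to 3, 0 to 4 and 0 to 2. In late against early grafts the ranges were 0 to 5 higher and 0 to 2 lower, and from day 7 to day 10, 0 to 2 were lower. With 1 array left on a day, its spread is assumed to be that of the others. Kept whichever array was left out were 1 of 7 calls on day 1 (Smad7), 1 of 13 on day 3 (Nrp1), 7 of 21 on day 7, 0 of 4 on day 10 and 0 of 2 in late against early grafts. Levels near the array median, as of Clec14a and Dll4 in the biopsies, understate differences.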
